A study of Caenorhabditis elegans with 12 samples.

Results

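The 10 genes described here serve folate uptake, the folate one-carbon cycle and the methionine cycle of the nematode Caenorhabditis elegans. They are the carriers folt-1 and folt-2, the folate enzymes dao-3, mel-32 and mthf-1, the methionine synthase metr-1, and the S-adenosylmethionine synthases sams-1, sams-3, sams-4 and sams-5. They were taken by gene symbol from a table of 45132 genes, 12850 of which passed a filter on low counts. Each of the 10 passed it, but sams-5 did so through 1 group: it had 10 or more reads in 3 of 3 libraries labelled L4440+atp-2, and at most 5 reads in any other library. folt-2 was chosen by its measured rise in the prp-19+atp-2 libraries over those labelled prp-19, which was among the strongest of all genes. The others were added for their function, with earlier results of these data known. The comparison of prp-19+atp-2 with prp-19 is therefore described for each gene without a test. folt-2 is tested only between groups that share no library with that comparison. Values of sams-5 are likewise given without a test.

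In the folate cycle, tetrahydrofolate carries one-carbon units taken from serine and glycine. Serine hydroxymethyltransferase loads them, methylenetetrahydrofolate dehydrogenase and reductase change their oxidation state, and the vitamin B12-dependent methionine synthase passes a methyl group to homocysteine. S-adenosylmethionine synthase then turns methionine into S-adenosylmethionine, the methyl donor for phosphatidylcholine, histone and RNA methylation. In C. elegans, loss of sams-1 is known to lower phosphatidylcholine and raise fat synthesis, and metr-1 requires vitamin B12 from the bacterial diet.

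RNA was taken from whole worms of the strain glp-4(bn2) on day 1 of adulthood, in 4 groups of 3 libraries made from the polyA fraction. One group, prp-19+atp-2, was raised on prp-19 RNAi and given atp-2 RNAi. The prp-19 group was raised on prp-19 RNAi alone, the L4440+atp-2 group was raised on control RNAi and given atp-2 RNAi, and the L4440 group had control RNAi alone, in which the bacteria carry the empty feeding vector. The product of prp-19 works in pre-mRNA splicing, and that of atp-2 is part of the mitochondrial ATP synthase. All groups carry the glp-4(bn2) allele, which blocks germline growth at the restrictive temperature. No source used here gives the growth temperature or says whether libraries came from separate cultures, so p-values measure only the spread between libraries. In whole worms, fewer cells of a type and less RNA per cell cannot be told apart.

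Library totals lay between 6731808 and 8802767 counts. The mRNA of atp-2 was lower with atp-2 RNAi on both bacteria, at 505 and 267 CPM (prp-19+atp-2 and L4440+atp-2 means) against 1015 and 1621 CPM without it (prp-19 and L4440 means). CPM stands for a gene's reads relative to library size, scaled by TMM factors, which set the bulk of genes equal between libraries. On the log2 scale the change of atp-2 was -2.60 on control bacteria and -1.01 on prp-19 bacteria, a weaker reduction on the second by 1.59 (SE 0.12, edgeR adjusted p = 3.33e-08 for the interaction). The mRNA of prp-19 went against its label: the libraries labelled prp-19 had 84.2, 38 and 41 CPM of it, against 27.1, 24.3 and 28.1 CPM in L4440 libraries (log2 fold change 1.04, SE 0.37, edgeR adjusted p = 0.0401). Nor was prp-19 mRNA called lower in the prp-19+atp-2 libraries, at 40.9, 29.2 and 18.1 CPM. The L4440+atp-2 libraries had 28, 27.9 and 27.6 CPM (log2 fold change 0.07, SE 0.37, edgeR adjusted p = 0.887). Groups are called by their labels throughout, and each direction below rests on those labels. Replicate 3 labelled prp-19 stood apart from its group: its chi-square per degree of freedom was 43 and 23.9 against replicates 1 and 2, where no other pair of replicates exceeded 9.34, and vitellogenin reads made up 17.7% of it, against 6.85% and 10.4% in replicates 1 and 2. The 6 vitellogenin genes took 12.9%, 11.6% and 12% of counts in the prp-19+atp-2, prp-19 and L4440+atp-2 libraries and 23.5% in the L4440 libraries. Scaling by library totals instead put the median log2 change of all 12850 genes at 0.29 after atp-2 RNAi on control bacteria, at 0.55 for prp-19 against L4440 and at 0.16 for prp-19+atp-2 against L4440+atp-2. Germline and oocyte markers, all 15 with reads in each group, had summed levels between 199 and 225 CPM with the label prp-19 and between 58.3 and 72.6 CPM with the label L4440. The 7 intestinal markers, all with reads in each group, summed to 1578 to 1974 CPM with the label prp-19 and to 2501 to 2890 CPM with the label L4440. The part of either tissue in the results was not tested.

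The genes lie on 5 chromosomes of assembly WBcel235, which the submitters' processing notes name together with ce11. folt-1 (locus tag C06H2.4) is at V:11141479-11143121 on the plus strand and folt-2 (F37B4.7) at V:2872465-2875600 on the minus strand, each with 4 introns. dao-3 (K07E3.3) is at X:8084210-8086550, minus strand, and sams-1 (C49F5.1) at X:11965962-11969893, plus strand. mel-32 (C05D11.11) is at III:6440145-6443000, minus strand, mthf-1 (C06A8.1) at II:7773904-7777823, minus strand, and metr-1 (R03D7.1) at II:10926561-10931078, plus strand. The last has the most introns of the 10, with 8. sams-3 (C06E7.1, plus strand, IV:5848657-5850843) and sams-4 (C06E7.3, minus strand, IV:5844061-5846369) face away from each other across 2287 bases with no protein-coding gene between them, and sams-5 (T13A10.11) is at IV:6277433-6279522 on the minus strand. The sams genes encode closely related enzymes, and how reads that match several of them were assigned is not given in the sources used here, so the split between them is uncertain. On the opposite strand, 171 exonic bases of folt-1 overlap C06H2.7, 18 of sams-3 overlap C06E7.4 and 11 of mthf-1 overlap C06A8.6. Without stated strand handling, reads in those stretches cannot be told apart.

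Per kilobase of exon, mel-32 was the most abundant of the 10 in each group, with means of 283, 299 and 303 CPM per kb in the prp-19+atp-2, prp-19 and L4440+atp-2 groups and 298 CPM per kb in the L4440 group. The order below it differed between groups. In the L4440 libraries dao-3 came next at 137 ± 5.45 CPM per kb, then sams-1 at 58.9 ± 1.67, folt-2 at 35.9 ± 4.45 and sams-4 at 34.1 ± 0.94 CPM per kb (SD, n = 3). With atp-2 RNAi folt-2 held the second place, at 152 ± 2.02 CPM per kb in the prp-19+atp-2 libraries and 173 ± 12.7 CPM per kb in the L4440+atp-2 libraries (SD, n = 3). Within the L4440 group, folt-2 and sams-4 did not differ beyond their SDs, nor did mthf-1 (27.3 ± 0.65 CPM per kb) and metr-1 (26.6 ± 1.8 CPM per kb). folt-1, sams-3 and sams-5 came last in this order in each of the 4 groups, and sams-5 stayed at or below 1.28 CPM per kb.

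**Figure D1:**
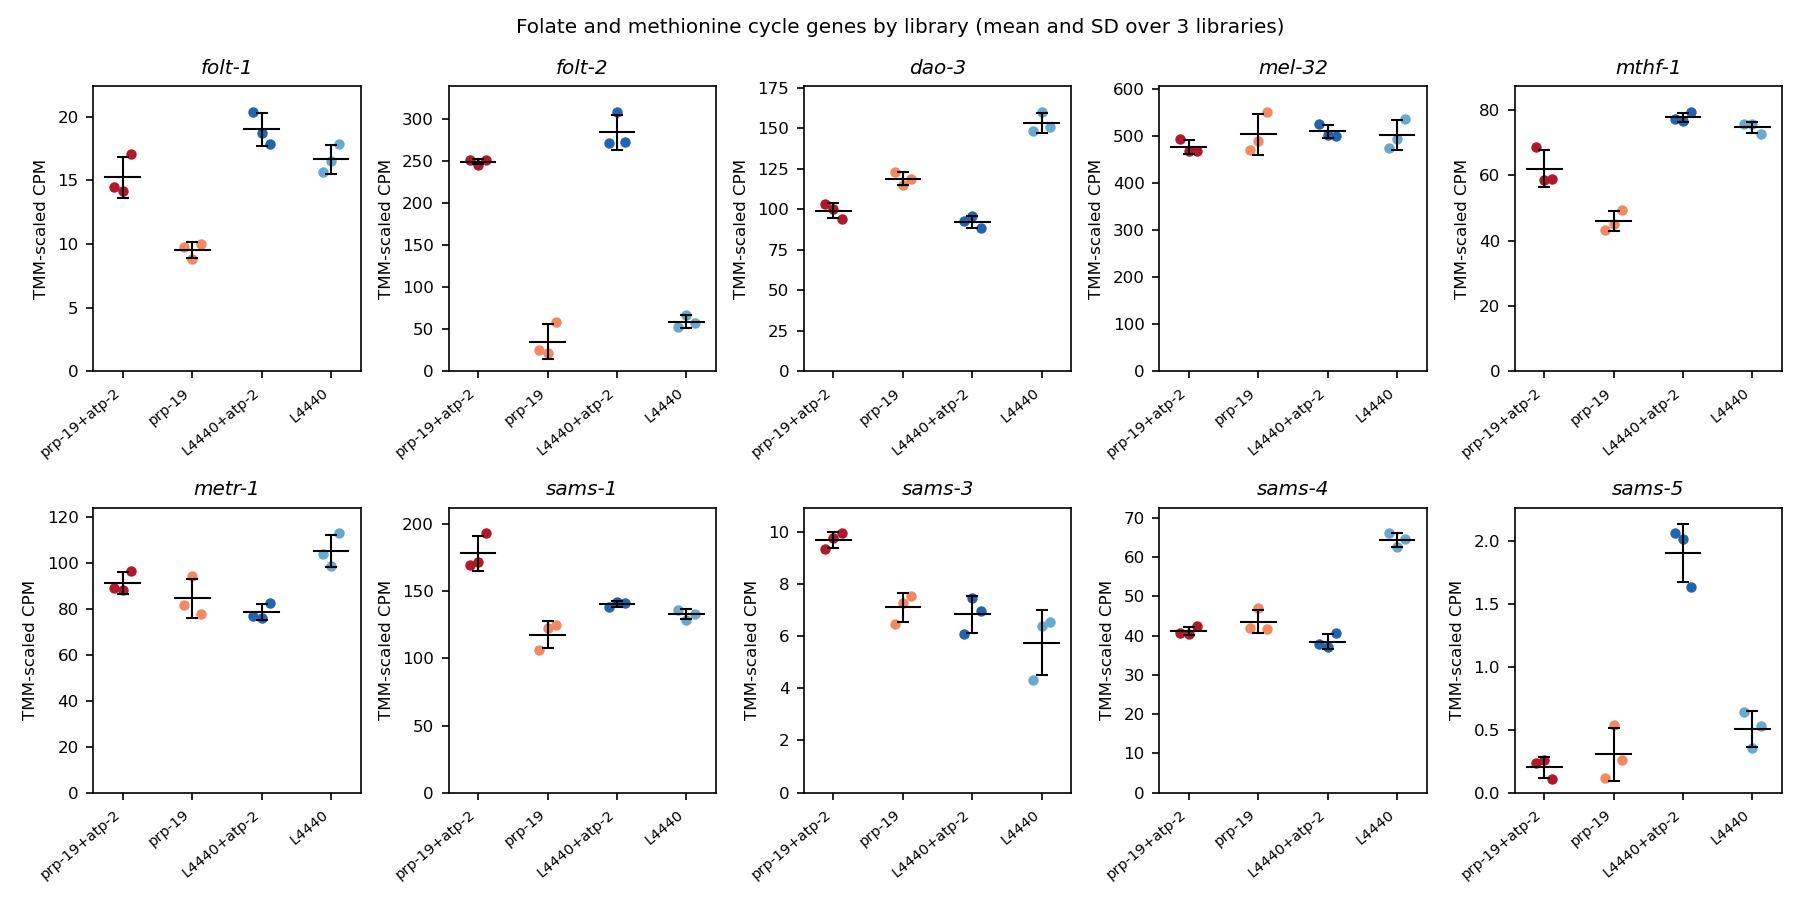
TMM-scaled CPM (linear axes from 0) of the 10 genes in each library, by group; points are libraries, lines the mean, and bars the SD over 3 libraries. folt-2 stands above 245 CPM in the 6 libraries with atp-2 RNAi and below 68 CPM in the 6 without, while mel-32 averages 477 to 510.2 CPM over the groups.

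The folate carriers belong to the family of solute carriers that holds the mammalian reduced folate carrier and thiamine transporters. folt-2 had the largest change of the 10 genes after atp-2 RNAi on either bacteria. It had 251, 246 and 252 CPM in the prp-19+atp-2 libraries and 25.4, 21.4 and 58.9 CPM in those labelled prp-19, in the order of replicates 1, 2 and 3. It had 272, 309 and 274 CPM in the L4440+atp-2 libraries and 53.1, 67.3 and 56.9 CPM in the L4440 libraries. The groups with and without atp-2 RNAi did not overlap on either bacteria.

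On control bacteria, in libraries that had no part in the choice of folt-2, its level was 4.82 times as high with atp-2 RNAi. This rise of 2.27 on the log2 scale (SE 0.31, adjusted p = 0.000488 by edgeR) was seen in 3 of 3 libraries and ranked 105 of 12850 genes from the highest. The SE and p of this fit draw on the spread within all 4 groups, those that chose folt-2 included. The rise stayed called in all 18 alternatives run, with an adjusted p of up to 0.00379. Among them was the fit of the 6 libraries on control bacteria alone. On prp-19 bacteria the described rise was 2.84 (SE 0.32). Among called genes averaging at least 5 CPM, the gene just above it was C09B8.4 at 3.52 and the gene just below it F58G6.9 at 2.69. This ranking is a description in the comparison that chose folt-2, and no test of folt-2 is read from it. The folt-2 value leaned on 1 library, replicate 3 of those labelled prp-19, in which folt-2 stood above replicates 1 and 2, and leaving that library out gave 3.43. The same library was high for acdh-1, a vitamin B12-responsive acyl-CoA dehydrogenase, at 139 CPM, against 3.99 and 5.68 CPM in replicates 1 and 2. Its part in the folt-2 value was not tested. Between bacteria, folt-2 is given without a test, since these comparisons share libraries with the one that chose it. The log2 difference was -0.76 (SE 0.33) for prp-19 against L4440, where the groups overlapped, and -0.19 (SE 0.29) for prp-19+atp-2 against L4440+atp-2.

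folt-1 stood far below folt-2 and was lowest with the label prp-19. It had 14.4, 14.2 and 17.1 CPM in the prp-19+atp-2 libraries, 9.75, 8.79 and 10 CPM in those labelled prp-19, 20.4, 18.8 and 17.9 CPM in the L4440+atp-2 libraries and 15.6, 16.5 and 17.8 CPM in the L4440 libraries. The libraries labelled prp-19 are the lowest group and overlap none of the others. Its log2 fold change for prp-19 against L4440 was -0.81 (SE 0.12, edgeR adjusted p = 1.89e-05), and -0.32 with library totals (adjusted p = 0.0396). With atp-2 RNAi in both groups it was -0.32 (SE 0.11, adjusted p = 0.0214), a call lost in 5 of 18 alternatives, DESeq2 among them. After atp-2 RNAi on control bacteria the change of 0.19 was not called (95% interval -0.03 to 0.42, adjusted p = 0.212), but reached 0.46 with library totals (adjusted p = 0.00623). Of the folate carrier reads, including those of the third relative folt-3, folt-2 took 93.9% and 75.3% in the prp-19+atp-2 and prp-19 groups (SD 0.48 and 8.13 percentage points) and 93.1% and 75.7% in the L4440+atp-2 and L4440 groups (SD 0.51 and 2.32), n = 3 each.

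Among the folate enzymes, dao-3 moved against folt-2. dao-3 encodes a methylenetetrahydrofolate dehydrogenase of the mitochondrial type and was named for its expression in dauer larvae and aging adults. It had 103, 100.4 and 94.1 CPM in the prp-19+atp-2 libraries, 123, 115 and 119 CPM in those labelled prp-19, 92.8, 95.8 and 88.4 CPM in the L4440+atp-2 libraries and 149, 160.1 and 151 CPM in the L4440 libraries. The L4440 libraries are the highest, and each group with atp-2 RNAi lies wholly below its partner without it. On control bacteria dao-3 fell by 0.73 on the log2 scale with atp-2 RNAi (SE 0.071, edgeR adjusted p = 1.34e-07), lower in 3 of 3 libraries and in all 18 alternatives. On prp-19 bacteria the described change was -0.26 (SE 0.070). It was also lower in the libraries labelled prp-19 than in the L4440 libraries, by a log2 change of -0.37 (adjusted p = 0.000182), but that direction depends on the scaling and was 0.12 with library totals (adjusted p = 0.272).

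With TMM factors, the gene next to dao-3 moved with it in 1 tested comparison and apart from it in 2. K07E3.4 lies on the same strand at X:8080868-8084018, 191 bases from dao-3. It had 258, 254 and 259 CPM in the prp-19+atp-2 libraries, 221, 229 and 253 CPM in those labelled prp-19, 453, 439 and 459.8 CPM in the L4440+atp-2 libraries and 356, 341 and 378 CPM in the L4440 libraries. After atp-2 RNAi on control bacteria it rose by 0.33 (SE 0.070, edgeR adjusted p = 0.00104), while dao-3 fell. For prp-19 against L4440 it fell, by 0.61 (SE 0.071, adjusted p = 5.25e-07), as dao-3 did with TMM factors. With library totals dao-3 did not fall there (0.12, edgeR adjusted p = 0.272). In the prp-19+atp-2 libraries it was lower than in the L4440+atp-2 libraries by a log2 change of -0.81 (adjusted p = 1.1e-08), where dao-3 differed by 0.10 and was not called (adjusted p = 0.238). The difference between the neighbours was not tested.

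**Figure D2:**
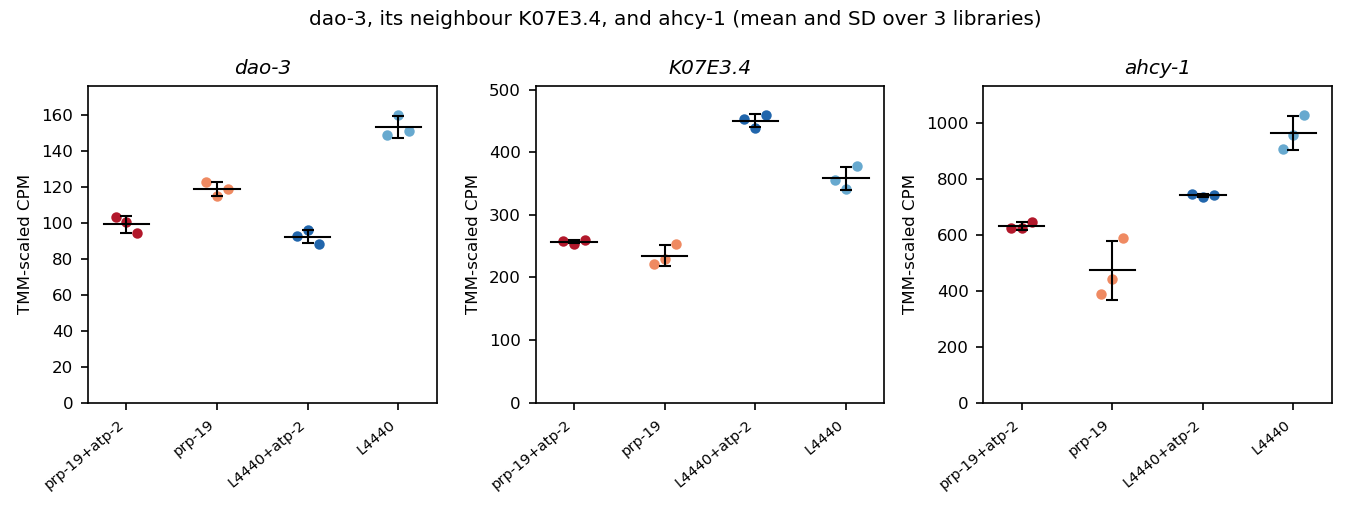
TMM-scaled CPM (linear axes from 0) of dao-3, its neighbour K07E3.4 and the S-adenosylhomocysteine hydrolase gene ahcy-1 in each library; points are libraries, lines the mean, and bars the SD over 3 libraries. In the L4440+atp-2 libraries dao-3 is below and K07E3.4 above the L4440 libraries.

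mel-32, the serine hydroxymethyltransferase that feeds one-carbon units into the cycle, was the steadiest of the 10. It averaged 477 ± 15.3 CPM in the prp-19+atp-2 libraries, 504 ± 42.7 CPM in those labelled prp-19, 510.2 ± 14.4 CPM in the L4440+atp-2 libraries and 502 ± 31.9 CPM in the L4440 libraries (SD, n = 3 each). Its 4 tested contrasts were not called by edgeR with TMM factors (log2 values from -0.10 to 0.02, adjusted p of 0.285 or more), and the 95% intervals of its 3 tested differences between groups lay within -0.24 and 0.17. With library totals it was called higher in 2 of these contrasts, by 0.30 after atp-2 RNAi on control bacteria and by 0.48 for prp-19 against L4440, and lower in the interaction, at -0.45.

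mthf-1 encodes methylenetetrahydrofolate reductase, which commits one-carbon units to methionine synthesis. It had 68.7, 58.7 and 58.9 CPM in the prp-19+atp-2 libraries, 43.2, 45.2 and 49.5 CPM in those labelled prp-19, 77.3, 76.7 and 79.4 CPM in the L4440+atp-2 libraries and 75.6, 75.8 and 72.6 CPM in the L4440 libraries. As for folt-1, the libraries labelled prp-19 are the lowest, and those of both groups on prp-19 bacteria lie below both groups on control bacteria. The log2 fold change was -0.70 for prp-19 against L4440 (SE 0.082, edgeR adjusted p = 5.79e-07) and -0.33 for prp-19+atp-2 against L4440+atp-2 (SE 0.079, adjusted p = 0.00176). The first call held in all 18 alternatives, and the second was lost with library totals alone (adjusted p = 0.0972). After atp-2 RNAi on control bacteria its change was 0.06 (95% interval -0.10 to 0.21, adjusted p = 0.611), and 0.33 with library totals (adjusted p = 0.00834). Over the 12 libraries, mthf-1 and folt-1 had the highest correlation of log2 CPM among the 45 pairs of the 10 genes (r = 0.92), a description over libraries that share the 4 groups.

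metr-1, the methionine synthase, was highest in the L4440 libraries. It had 88.9, 88 and 96.6 CPM in the prp-19+atp-2 libraries, 81.5, 94 and 77.9 CPM in those labelled prp-19, 76.6, 76.1 and 82.4 CPM in the L4440+atp-2 libraries and 103.7, 98.7 and 113 CPM in the L4440 libraries. The L4440 group overlaps no other, and the groups with and without atp-2 RNAi on prp-19 bacteria overlap each other. With atp-2 RNAi on control bacteria it fell by 0.42 (SE 0.084, edgeR adjusted p = 0.000569), a call lost with library totals alone (-0.15, adjusted p = 0.25). It fell by 0.31 for prp-19 against L4440 (SE 0.083, adjusted p = 0.00353), a direction that reversed with library totals (0.18, adjusted p = 0.132). It was higher in prp-19+atp-2 than in L4440+atp-2 by 0.22 (SE 0.083, adjusted p = 0.0329), a call lost in 6 of 18 alternatives, DESeq2 among them (adjusted p = 0.0714).

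Of the S-adenosylmethionine synthase genes, sams-1 provided most reads and sams-4 most of the rest. sams-1 had 169, 172 and 193 CPM in the prp-19+atp-2 libraries, 106, 123 and 124 CPM in those labelled prp-19, 138, 142 and 141 CPM in the L4440+atp-2 libraries and 136, 129 and 133 CPM in the L4440 libraries. The prp-19+atp-2 libraries are the highest and overlap no other group. sams-1 was higher there than in the L4440+atp-2 libraries by 0.34 (SE 0.077, edgeR adjusted p = 0.000876), in 3 of 3 libraries and in all 18 alternatives. Its change of -0.17 for prp-19 against L4440 was not called (adjusted p = 0.0629). It reached -0.21 with either RLE size factors or DESeq2, a call in both (adjusted p = 0.0273 with RLE and 0.0373 with DESeq2), and turned to 0.30 with library totals (adjusted p = 0.00309). After atp-2 RNAi its change on control bacteria was 0.08 (95% interval -0.07 to 0.23, adjusted p = 0.467), which became 0.35 with library totals (adjusted p = 0.00206), and the described change on prp-19 bacteria was 0.60 (SE 0.077).

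sams-4 showed the opposite arrangement. It had 40.7, 40.4 and 42.3 CPM in the prp-19+atp-2 libraries, 41.8, 47 and 41.8 CPM in those labelled prp-19, 37.8, 37 and 40.5 CPM in the L4440+atp-2 libraries and 66, 62.5 and 64.5 CPM in the L4440 libraries. The L4440 libraries alone are high, and the other groups lie within a narrow band. With atp-2 RNAi on control bacteria sams-4 fell by 0.74 (SE 0.078, edgeR adjusted p = 3.77e-07), in 3 of 3 libraries and in all 18 alternatives. Against L4440, the libraries labelled prp-19 fell by 0.56 (SE 0.077, adjusted p = 4.32e-06), a call lost with library totals alone (-0.08, adjusted p = 0.507). The change after atp-2 RNAi on prp-19 bacteria was described at -0.08 (SE 0.077). As a share of reads over the 4 sams genes, sams-4 took 18% ± 0.66 and 25.9% ± 1.63 in the prp-19+atp-2 and prp-19 libraries and 20.5% ± 0.82 and 31.6% ± 0.19 in the L4440+atp-2 and L4440 libraries (SD in percentage points, n = 3 each). This share does not depend on the scaling between libraries, and with atp-2 RNAi it lay below the share without it in each pair of groups, with no overlap.

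sams-3 and sams-5 were minor. sams-3 averaged 9.69 ± 0.30 CPM in the prp-19+atp-2 libraries, 7.10 ± 0.57 CPM in those labelled prp-19, 6.84 ± 0.71 CPM in the L4440+atp-2 libraries and 5.74 ± 1.25 CPM in the L4440 libraries (SD, n = 3 each). With TMM factors it was called only for prp-19+atp-2 against L4440+atp-2, at 0.50 (SE 0.15, edgeR adjusted p = 0.00894), and not without replicate 1 of the L4440+atp-2 libraries (adjusted p = 0.0548). With library totals it was also called after atp-2 RNAi on control bacteria (0.53, adjusted p = 0.0249) and for prp-19 against L4440 (0.79, adjusted p = 0.000627). sams-5 had 2, 2 and 1 reads in the prp-19+atp-2 libraries and 1, 5 and 2 in those labelled prp-19, against 18, 17 and 12 in the L4440+atp-2 libraries and 4, 2 and 3 in the L4440 libraries. Only the L4440+atp-2 libraries held more than 5 reads of it. The fitted log2 differences were 1.87 for L4440+atp-2 against L4440 (SE 0.44) and -3.18 for prp-19+atp-2 against L4440+atp-2 (SE 0.49), given without a test since the gene passed the filter through the group where it is high. Summing the reads of sams-3, sams-4 and sams-5, as a guard against reads split between them, gave 51.1 ± 1.16 and 50.9 ± 3.39 CPM in the prp-19+atp-2 and prp-19 groups and 47.2 ± 1.70 and 70.6 ± 1.21 CPM in the L4440+atp-2 and L4440 groups (SD, n = 3 each). The sum fell by 0.58 with atp-2 RNAi on control bacteria (SE 0.074). It leaves out sams-1, so it cannot guard against reads split between sams-1 and these genes. Over all 4 sams genes the sums were 229 ± 14.1 and 169 ± 12.5 CPM in the prp-19+atp-2 and prp-19 groups. They were 188 ± 3.22 and 203 ± 4.76 CPM in the L4440+atp-2 and L4440 groups (SD, n = 3 each).

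**Figure D3:**
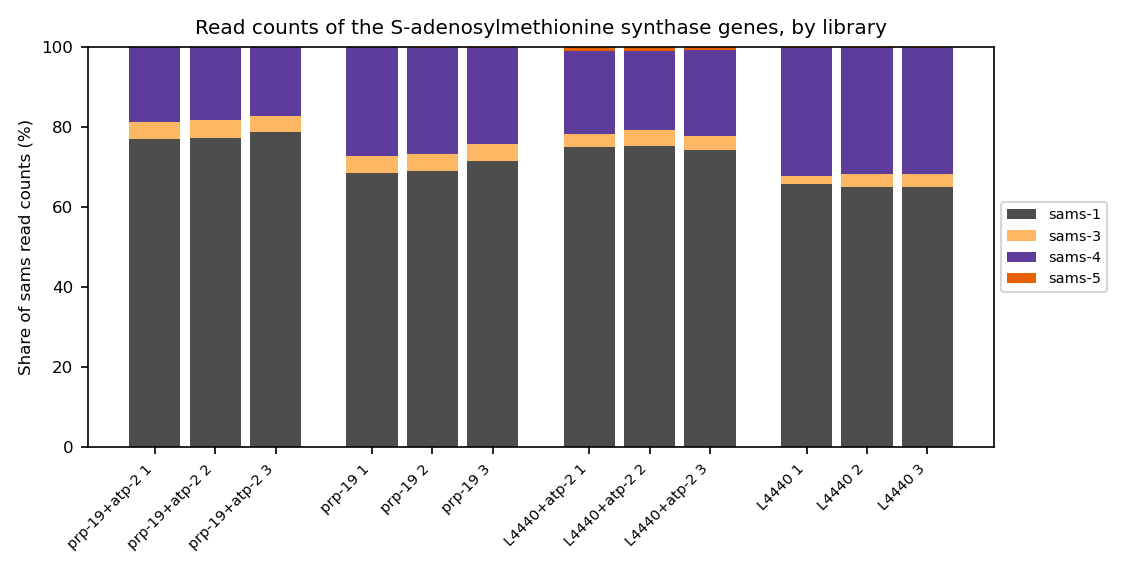
Share (%) of the reads over the 4 sams genes taken by each gene, 1 bar per library, by group. sams-1 holds 77.1% to 78.7% in the prp-19+atp-2 libraries and 65.1% to 65.8% in the L4440 libraries, and sams-5 is visible in the L4440+atp-2 libraries.

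Set side by side, the 10 genes had no common direction after atp-2 RNAi on control bacteria. By edgeR at an adjusted p under 0.05 over all genes tested, folt-2 rose, dao-3, sams-4 and metr-1 fell, and 5 of the 9 genes other than sams-5 were not called. These 4 calls among 9 compare with 34.1% of all 12850 genes, 17% higher and 17.1% lower. The median log2 change was 0.07 over the 10 genes and 0.03 over all genes. With library totals 8 of the 9 were called, 6 higher and 2 lower, where 4397 of all 12850 genes were higher and 989 lower. On prp-19 bacteria, where 9.77% of all genes were called (5.06% higher and 4.72% lower), the described changes ran from -0.62 for sams-5 to 2.84 for folt-2. There, 6 of 10 were positive and the median was 0.27, or 0.11 without folt-2.

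Between bacteria, called changes among the 8 genes other than folt-2 and sams-5 were about as frequent as among all genes in the fit of all 12 libraries with TMM factors. For prp-19 against L4440, folt-1, mthf-1, sams-4, dao-3 and metr-1 fell and the other 3 were not called, where 58.5% of all genes were called, 30% higher and 28.5% lower. For prp-19+atp-2 against L4440+atp-2, sams-1, sams-3 and metr-1 rose, folt-1 and mthf-1 fell and 3 were not called, where 53% of all genes were called, 26.5% in each direction. Both counts are thus 5 of 8. With library totals, the first comparison gave 3 higher and 2 lower, where 7385 of all 12850 genes were higher and 1589 lower. The second comparison with library totals gave 4 called, all higher, where 4112 of all genes were higher and 2496 lower. The second count was 2 without L4440+atp-2 replicate 1, 3 without prp-19+atp-2 replicate 1 and 3 by DESeq2. In these fits 6114 of 13123, 6177 of 13105 and 6110 of 12848 genes were called. Without prp-19 replicate 3 the counts were 6 and 5, where 7843 and 7361 of 13119 genes were called. Among markers, 4 of 7 intestinal genes were lower and 1 higher in the libraries labelled prp-19 than in the L4440 libraries, and 10 of 14 germline and oocyte, 4 of 5 pharyngeal, 5 of 8 neuronal and 4 of 6 hypodermal genes were higher. Their part in these changes was not tested.

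**Figure D4:**
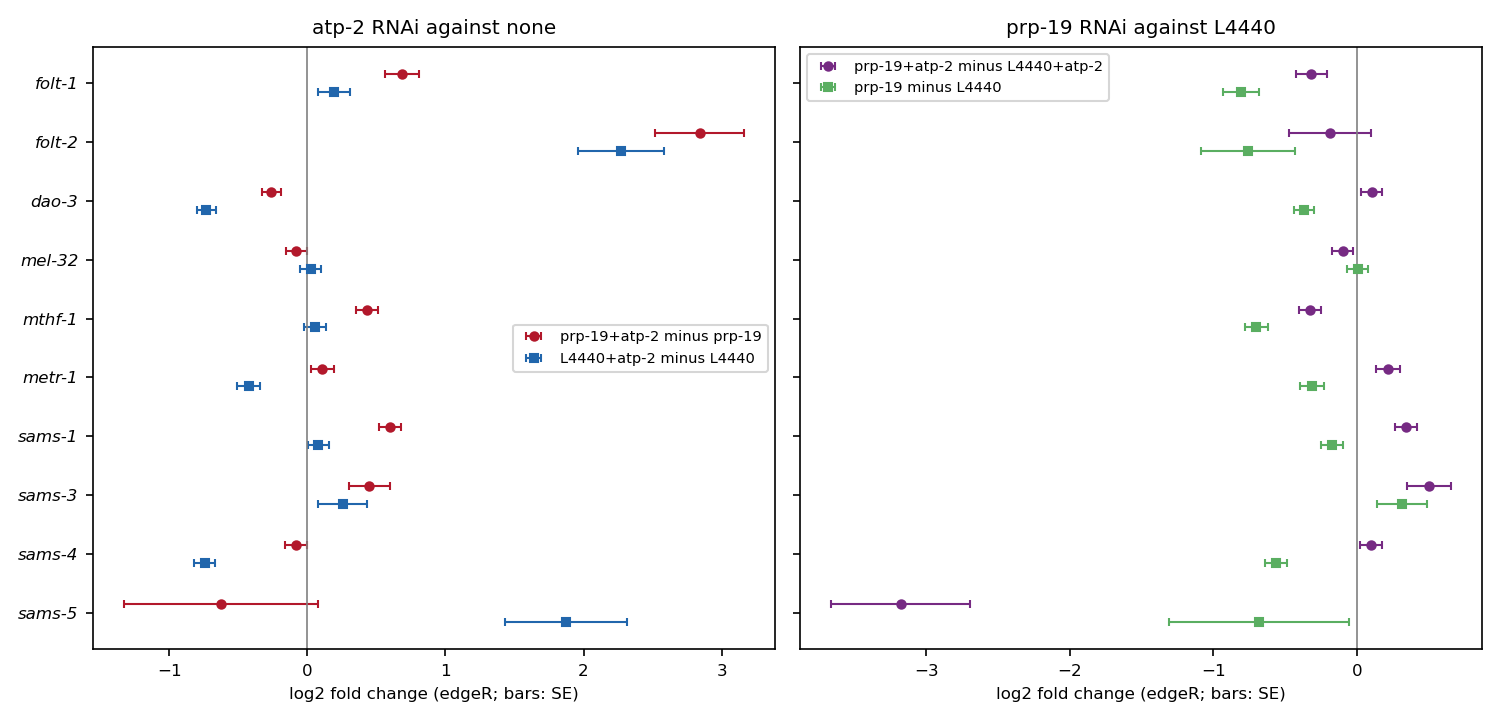
log2 fold changes with SE (edgeR) of the 10 genes for atp-2 RNAi against none (left) and prp-19 RNAi against L4440 (right), in each background. folt-2 is at 2.84 and 2.27 on the left, and dao-3, metr-1, sams-1 and sams-4 lie further right in prp-19+atp-2 minus prp-19 than in L4440+atp-2 minus L4440.

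Whether the atp-2 response depended on the bacteria was tested by the interaction, the atp-2 effect on prp-19 bacteria minus that on control bacteria. The reduction of atp-2 itself was weaker on prp-19 bacteria, as given above, and its part in these interactions was not tested. By edgeR, 6 of the 8 genes other than folt-2 and sams-5 were called, all positive, where 19.3% of all genes were called, 10.1% positive and 9.14% negative. They were sams-4 (0.66, SE 0.11, adjusted p = 0.000272), metr-1 (0.53, SE 0.12, adjusted p = 0.00328), sams-1 (0.52, SE 0.11, adjusted p = 0.00227), folt-1 (0.49, SE 0.17, adjusted p = 0.0456), dao-3 (0.47, SE 0.099, adjusted p = 0.00233) and mthf-1 (0.37, SE 0.11, adjusted p = 0.0257). The described value of sams-5 was -2.50 (SE 0.86). For sams-4 and dao-3 the fall after atp-2 RNAi on control bacteria was smaller on prp-19 bacteria, and for sams-1 and mthf-1 the change on prp-19 bacteria had little counterpart on control bacteria with TMM factors, though not with library totals.

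These interactions depended on the scaling. With library totals the median interaction over all genes was -0.38, and of all 12850 genes 499 were called positive and 3518 negative. Of the 8 genes, 1 was called with library totals, mel-32, with a negative value. With TMM factors the count was 6 without prp-19 replicate 3, where 3583 of 13119 genes were called. It was 4 without replicate 2 of the L4440 libraries, without replicate 2 of the L4440+atp-2 libraries or without replicate 1 of the prp-19+atp-2 libraries. In these fits 2038 of 13187, 2044 of 13134 and 1999 of 13105 genes were called. sams-1, sams-4, metr-1 and dao-3 lost their call with library totals and in none of the other 16 alternatives, while folt-1 and mthf-1 lost it in 11 and 6 of 17. Among intestinal markers, 4 of 7 also had a called positive interaction, with a list median of 0.43, and the part of intestinal RNA in the result was not tested. For folt-2 the difference of its atp-2 effects was 0.57 (SE 0.44), given without a test.

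Genes around these cycles were counted in lists written from general knowledge, but with earlier results of these data known. The list counts and the shares of all genes beside them are therefore descriptions, and no test of a list was run. The percentages of all genes given beside them are those with TMM factors. List counts with library totals compare instead with the all-gene counts given above for that scaling. In the folate cycle list, which holds relatives and partner enzymes, 14 of 15 genes passed the filter. Of these, 9 rose and 2 fell after atp-2 RNAi on control bacteria, where 17% of all genes rose and 17.1% fell. The rises were led by tyms-1, thymidylate synthase (log2 fold change 1.44, SE 0.21, edgeR adjusted p = 2.22e-05), and dld-1, the dihydrolipoamide dehydrogenase shared by the glycine cleavage system (0.91, SE 0.065, adjusted p = 2.05e-09), while atic-1, a folate-using purine synthesis enzyme, fell by 0.74 (SE 0.076, adjusted p = 2.81e-07). In the prp-19 libraries against L4440, 2 were higher and 10 lower (30% and 28.5% of all genes), and with atp-2 RNAi in both groups 1 was higher and 10 lower (26.5% each of all genes). The list medians were -0.76 and -0.73, against 0.06 and 0.03 over all genes.

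Members of the glycine cleavage system, which passes one-carbon units from glycine to folate, were among those lower. gldc-1 averaged 172 ± 3.48 CPM in the prp-19+atp-2 libraries, 115 ± 10.7 CPM in those labelled prp-19, 352 ± 18.1 CPM in the L4440+atp-2 libraries and 249 ± 15.02 CPM in the L4440 libraries (SD, n = 3 each). Its log2 fold changes between bacteria were -1.11 without and -1.03 with atp-2 RNAi (adjusted p = 6.45e-10 and 1.44e-09, edgeR). gcsh-1, also of this system, stood at -1.13 without atp-2 RNAi (SE 0.092, adjusted p = 3.89e-09). The folate transporter relative folt-3 was also lower, at -2.05 (SE 0.45, adjusted p = 0.000641) and -1.31 (SE 0.38, adjusted p = 0.00751), on at most 21 reads in a library. With library totals the first of these comparisons gave 4 higher and 7 lower in the list and the second kept 1 higher and 10 lower.

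In the methionine cycle and transsulfuration list, 11 of 13 genes passed. After atp-2 RNAi on control bacteria 3 rose and 5 fell (17% and 17.1% of all genes), and with library totals 5 rose and 1 fell. ahcy-1, the S-adenosylhomocysteine hydrolase that closes the methionine cycle, averaged 632 ± 13.8 CPM in the prp-19+atp-2 libraries, 473 ± 105 CPM in those labelled prp-19, 742 ± 6.14 CPM in the L4440+atp-2 libraries and 966 ± 60.8 CPM in the L4440 libraries (SD, n = 3 each). Like sams-4, dao-3 and metr-1, it was highest in the L4440 libraries and fell there with atp-2 RNAi (-0.38, SE 0.11, adjusted p = 0.0127). Its interaction was 0.80 (SE 0.16, adjusted p = 0.0017). mtrr-1, the reductase that keeps methionine synthase active, rose by 0.89 in the same comparison (SE 0.12, adjusted p = 5.49e-06) while metr-1 fell. In the libraries labelled prp-19, against L4440, 1 gene of the list was higher and 7 were lower (30% and 28.5% of all genes), led by the cysteine synthase relative cysl-2 (-1.89, SE 0.11, adjusted p = 4.96e-11) and the cystathionine gamma-lyase cth-1 (-1.28, SE 0.097, adjusted p = 1.58e-09). With library totals that split was 4 higher and 5 lower.

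**Figure D5:**
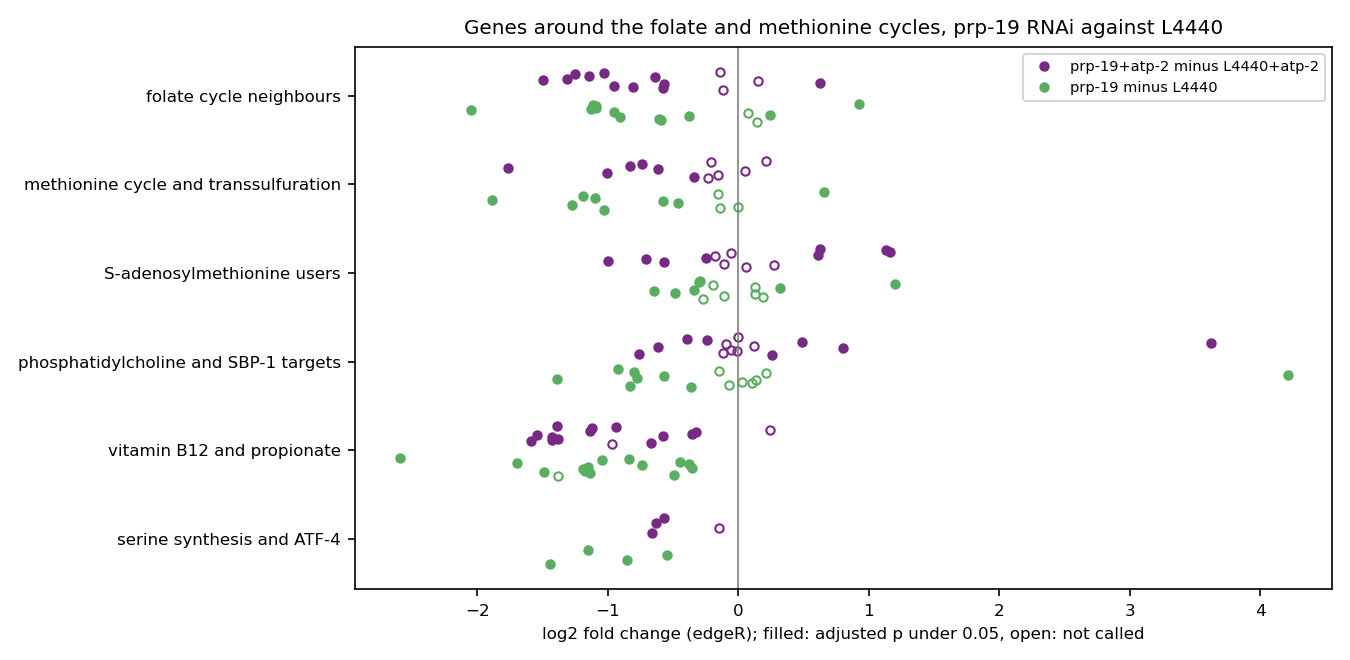
log2 fold changes (edgeR) of each tested gene in the 6 lists for prp-19+atp-2 against L4440+atp-2 (upper row of each list) and prp-19 against L4440 (lower row); filled points passed an adjusted p of 0.05. In the vitamin B12 and propionate list 13 and 14 of 15 genes are filled, all of them on the negative side.

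Users of S-adenosylmethionine moved in both directions. All 13 passed the filter, and after atp-2 RNAi on control bacteria 3 rose and 4 fell (17% and 17.1% of all genes), or 6 rose and 2 fell with library totals. Those that fell included smd-1, S-adenosylmethionine decarboxylase of polyamine synthesis (-1.27, SE 0.24, adjusted p = 0.00267), and spds-1, spermidine synthase (-0.47, SE 0.10, adjusted p = 0.00156). Both had positive interactions, of 1.44 (adjusted p = 0.0155) and 0.91 (adjusted p = 0.000148) by edgeR. The phosphoethanolamine methyltransferase pmt-1, a main user of S-adenosylmethionine for phosphatidylcholine, was lower for prp-19 against L4440 (-0.65, SE 0.071, adjusted p = 2.44e-07) and with atp-2 RNAi in both (-0.71, SE 0.071, adjusted p = 7.58e-08). The histone methyltransferase gene set-2 was higher in the same comparisons, by 1.20 and 1.16. For prp-19 against L4440 this list had 2 higher and 4 lower (30% and 28.5% of all genes), but 5 higher and 1 lower with library totals.

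The list of phosphatidylcholine enzymes and targets of the lipid regulator SBP-1 fell after atp-2 RNAi on control bacteria: 8 of 14 genes tested were lower (17.1% of all genes), the other 6 were not called, and the median was -0.45. fat-5, a palmitoyl-CoA desaturase, averaged 495 ± 25.4 CPM in the L4440+atp-2 libraries and 1311 ± 49.0 CPM in the L4440 libraries (SD, n = 3 each; log2 fold change -1.41, SE 0.083, edgeR adjusted p = 1.65e-10). Library totals changed this to 2 higher and 4 lower. In the interaction, 6 genes were positive (10.1% of all genes; 2 genes with library totals) and 8 not called, with fat-5 at 0.89 (SE 0.12, adjusted p = 2.17e-05) and ckb-4, a choline kinase relative, at 0.78 (SE 0.18, adjusted p = 0.00412). For prp-19 against L4440, 1 gene of this list was higher and 7 were lower (30% and 28.5% of all genes). With library totals 6 were higher and 5 lower. The 1 higher with TMM factors was the desaturase gene fat-7, at 26.3, 24 and 13.4 CPM with the label prp-19 and 1.12, 1.78 and 0.53 CPM with the label L4440 (4.21, SE 0.38, adjusted p = 3.19e-07).

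The vitamin B12 and propionate list, which holds the B12-dependent propionate pathway, its shunt and their regulators, was lower on prp-19 bacteria. For prp-19 against L4440, 14 of 15 genes were lower (28.5% of all genes) with a median of -1.14, and with atp-2 RNAi in both groups 13 of 15 were lower (26.5% of all genes) with a median of -1.12. With library totals these were 10 lower, and 12 lower with 1 higher. pmp-5, an ABC transporter gene, stood at -2.60 (SE 0.26, edgeR adjusted p = 1.73e-05) and -1.39 (SE 0.24, adjusted p = 0.00091), and mmcm-1, methylmalonyl-CoA mutase, at -1.15 (SE 0.076) and -1.54 (SE 0.076). The nuclear hormone receptor gene nhr-114 stood at -1.70 in the first comparison (SE 0.17, adjusted p = 9.56e-07) and hach-1 of the propionate shunt at -1.59 in the second (SE 0.079, adjusted p = 4.74e-12). After atp-2 RNAi on control bacteria 9 of 15 rose (17% of all genes; 12 with library totals), among them hphd-1 of the same shunt, at 702 ± 44.8 CPM in the L4440+atp-2 libraries and 159 ± 12.7 CPM in the L4440 libraries (SD, n = 3 each; 2.14, adjusted p = 0.0004). acdh-1 rose further, with 1281 ± 157 CPM in the L4440+atp-2 libraries and 127 ± 18.3 CPM in the L4440 libraries (SD, n = 3 each). Its log2 fold change with RLE size factors was 3.31 (SE 1.02, edgeR adjusted p = 0.0357). In the list of serine synthesis genes and atf-4, 4 of 4 were lower for prp-19 against L4440 (28.5% of all genes; 3 with library totals), with C31C9.2 at -1.44 (SE 0.080, adjusted p = 2.13e-11) and the transcription factor gene atf-4 at -1.15 (SE 0.074, adjusted p = 1.71e-10).

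The genes most like 4 of the 10 were sought by Pearson correlation of log2 CPM over the 12 libraries among 9278 genes of at least 5 CPM. These values are descriptions, since the libraries share 4 groups. Most like folt-2 were ltah-1.2 (r = 0.96), the nuclear hormone receptor genes nhr-68 (0.96) and nhr-101 (0.96) and the citrate synthase gene cts-1 (0.95). cts-1 averaged 783 ± 14.8 CPM in the prp-19+atp-2 libraries, 317 ± 28.9 CPM in those labelled prp-19, 994 ± 35.0 CPM in the L4440+atp-2 libraries and 508 ± 15.6 CPM in the L4440 libraries (SD, n = 3 each). Most like dao-3 were dhs-28, thn-2, W09C3.7 and lys-7, all with r = 0.98. Those nearest sams-4 were pud-3, pud-4, pud-1.2 and pud-2.1 (0.97 to 0.98). pud-3 stood at 15.7 ± 2.14, 27.2 ± 3.08 and 9.58 ± 2.83 CPM in the prp-19+atp-2, prp-19 and L4440+atp-2 libraries and at 471 ± 36.3 CPM in the L4440 libraries (SD, n = 3 each), a contrast far wider than that of sams-4 but with the same group on top. For sams-1 the nearest were pms-2, Y54E2A.4, F30B5.4 and ltah-1.2 (0.86 to 0.90).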

How the data were processed

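The authors deposited raw read counts for 45132 genes. The 12 count columns carry the sample titles, which gave their groups. The submitters' processing notes list FastQC, STAR 2.7.5c, HISAT2 2.1.0, R 4.0.5 and DESeq2 with the builds ce11 and WBcel235, without roles; the counting program, strand handling and treatment of multiply matching reads were not given in the sources used here. Replicates differed by more than sampling noise in each pair (chi-square per degree of freedom at least 1.44), so all 12 counted.

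The tests used edgeR 4.0.16 under R 4.3.3, with filterByExpr by group, TMM factors, robust glmQLFit and glmQLFTest with 1 coefficient per group, no replicate block and 8 residual degrees of freedom. Calls were at a Benjamini-Hochberg adjusted p under 0.05 over 12850 genes. SEs were derived from the F statistic and the log2 change, and 95% intervals from the SE by the normal quantile. The script was tested on simulated data. Gene positions and exon lengths came from Ensembl release 115 (WBcel235), in which all 10 genes matched. Alternatives were RLE size factors, library totals, DESeq2 1.42.0 without independent filtering, no filter, a replicate block, the compared groups only, leaving out each library, and summed sams-3, sams-4 and sams-5.

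The members and lists were chosen with earlier results of these data known. Genes named outside the 10 are list genes called in at least 1 tested contrast, the 4 most correlated genes each, genes that overlap the 10, prp-19 and atp-2, and C09B8.4 and F58G6.9, named for their rank beside folt-2.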

Additional observations from a re-analysis of the deposited data

Results flagged for a closer look

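By the interaction in edgeR with TMM factors, 6 of the 8 genes other than folt-2 and sams-5 were called as differing in their atp-2 effect between bacteria, where 19.3% of all 12850 genes were called. With library totals the count was 1 of 8, mel-32, where 4017 of all 12850 genes were called. sams-4 differed by 0.66 on the log2 scale (adjusted p = 0.000272), metr-1 by 0.53 (adjusted p = 0.00328), sams-1 by 0.52 (adjusted p = 0.00227) and dao-3 by 0.47 (adjusted p = 0.00233), calls lost with library totals alone. folt-1 differed by 0.49 (adjusted p = 0.0456) and mthf-1 by 0.37 (adjusted p = 0.0257), calls lost in 11 and 6 of 17 alternatives. The value of sams-5 was -2.50, with no test read from it, since it passed the filter through the L4440+atp-2 libraries alone. With 3 libraries a group, no library was tested for standing apart within its group.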

How the results depend on the processing

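Over 49 log2 changes of the 10 genes and their alternatives, 870 values were compared, and 788 kept their direction and their side of the threshold, or, untested, moved by less than the replicate SD. Scaling mattered most. These counts include sams-5, whose calls are not read as tests since it passed the filter through the L4440+atp-2 libraries alone. Without sams-5, library totals gave 8 called after atp-2 RNAi on control bacteria (4 with TMM factors) and 1 in the interaction (6). With sams-5 these were 9 (5) and 2 (7). Without sams-5, leaving out 1 library at a time gave 4 to 4 genes for the atp-2 effect on control bacteria and 5 to 6 for prp-19 against L4440. It gave 2 to 5 for prp-19+atp-2 against L4440+atp-2 and 4 to 6 for the interaction. With sams-5 the ranges were 5 to 5, 5 to 6, 3 to 6 and 4 to 7, in that order. folt-2 on prp-19 bacteria ranged from 2.58 to 3.43. Directions reversed with library totals for prp-19 against L4440 in sams-1 (0.30), metr-1 (0.18) and dao-3 (0.12), for mel-32 with atp-2 RNAi in both groups (0.0389) and for the interaction of sams-3 (-0.15). Other reversals of tested values were of mel-32 near 0: for prp-19 against L4440, -0.0315 with RLE size factors, -0.0316 with DESeq2, and -0.0922 to 0.0493 without 1 library at a time; after atp-2 RNAi on control bacteria, -0.0144 to 0.0746 likewise. Among described values after atp-2 RNAi on prp-19 bacteria, sams-5 (-0.62) was 0.0856 without prp-19 replicate 2.

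The causes were not tested. Same-numbered replicates were not paired by the labels, and their deviations correlated over 0.1 in 1 of 18 pairs (-0.11 to 0.12). With a replicate block 4, 5, 5 and 5 genes other than sams-5 were called, in the order used above. Of all 12850 genes, 4273, 7452, 6728 and 2298 were called with that block. Of the 12 libraries, 6 correlated best with their own number. Over all genes, the count called on prp-19 bacteria was 1256, 547 in a fit of those 6 libraries alone, 2887 when prp-19 replicate 3 was left out, and 696 to 808 when prp-19 replicate 2 or any 1 prp-19+atp-2 library was; the interaction count was 2475, and 4017 with library totals. Each group has 3 libraries of at most 8802767 reads, and sams-5 rests on at most 18 reads in a library.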
